A study of Rattus norvegicus with 87 samples.

Results

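The expression of 6 glutamatergic signaling genes was examined in the lateral habenula (LHb) of HS rats. Heterogeneous Stock (HS) animals are outbred descendants of several inbred strains. The genes were taken by their identifiers in the LHb gene table: Grin1 (ENSRNOG00000011726), Grin2a (ENSRNOG00000033942), Grin2b (ENSRNOG00000008766), Gria1 (ENSRNOG00000045816), Camk2a (ENSRNOG00000018712) and Camk2b (ENSRNOG00000052080). All 6 were among the 17512 genes of the table, and none was at 0 in any rat. No rat had been through a behavioral test or given a drug, cages were shared, and there was no treated group. Per the study's methods, males and females were of similar mean age and related rats were avoided where possible. Each rat gave 1 library of polyA RNA from both habenulae together, dissected by hand from frozen sections. The rats differed in 2 labels, sex (41 males and 40 females) and rat batch. Counted as males and females, there were 11 and 4 in batch 2, 10 and 12 in batch 3, 12 and 15 in batch 4, and 8 and 8 in batch 6, while batch 5 was a single female.

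The LHb is a small, mainly glutamatergic nucleus that passes aversive and reward-omission signals to the midbrain. NMDA receptors are calcium-permeable glutamate receptors that need the GluN1 subunit, encoded by Grin1, together with GluN2 subunits such as GluN2A (Grin2a) and GluN2B (Grin2b), which set their kinetics. AMPA receptors, which carry fast glutamatergic currents, include GluA1 (Gria1). Calcium entering through such receptors activates calcium/calmodulin-dependent protein kinase II (CaMKII), whose alpha and beta subunits (Camk2a and Camk2b) phosphorylate AMPA receptors at the synapse. The beta subunit in the LHb has been studied in rodent models of depression.

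Values are log2(normalized count + 1), where the normalized count is the count per gene after the authors scaled each library by its upper quartile. The scaled libraries summed to 16.2 M to 20.2 M counts, and 296 to 1661 genes were at 0 per library. For 65 rats the unscaled total was estimated from the steps between low values, and it ranged from 5.74 M to 30.5 M counts (median 18.3 M). In these rats the median estimated count was 4093 for Grin1, 252 for Grin2a, 85.5 for Grin2b, 3180 for Gria1, 810.0 for Camk2a and 7395 for Camk2b. Counting error at these counts was 0.156 (log2 SD) for Grin2b and 0.091 for Grin2a, and it was 0.0507 or less for the other genes. Levels were not compared between genes as amounts of transcript, because transcript lengths were not used here. The tissue label could not be checked against marker genes, since no table used here pairs the identifiers with symbols. In bulk tissue, fewer cells of a type and less RNA per cell cannot be told apart.

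The columns of the table came in 3 consecutive alphabetical runs of rat identifiers, which nearly coincided with batch. For this, samples whose labels had been exchanged were placed by their original label. The identifiers as deposited break the order at a further place, within run 2. Run 1 held every rat of batch 2, and run 3 held every rat of batches 4, 5 and 6. Batch 3 was spread over 7 rats in run 1, 12 in run 2 and 3 in run 3. What the runs stand for is not stated, so batch and run could be told apart through batch 3 alone. The rat of batch 5 was left out of the fits, which held 80 rats. Rats of 1 batch share whatever that batch shared, so p-values between batches measure the spread among these rats.

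Grin1 and Camk2b gave the closest of the 15 pairings from rat to rat, as described later, and their promoter sequences are shown for that reason. Each run is the 250 bases before the annotated start, read 5′ to 3′ along the gene, from RefSeq on build GRCr8; the expression table itself was made on Rnor_6.0. Of the 6 genes, 3 matched an entry of the promoter table (Grin1, Camk2a and Camk2b). The capitals mark TGACG, the core motif of the cAMP response element, and GGGCGG, the GC box, each on either strand and with overlapping matches marked together.

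Grin1, chr3:28528755-28529004, minus strand: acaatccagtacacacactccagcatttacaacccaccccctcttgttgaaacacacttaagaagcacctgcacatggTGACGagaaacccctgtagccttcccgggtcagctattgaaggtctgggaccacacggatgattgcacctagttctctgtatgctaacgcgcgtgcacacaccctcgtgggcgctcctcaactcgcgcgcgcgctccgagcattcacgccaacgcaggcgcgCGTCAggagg

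Camk2b, chr14:85147945-85148194, minus strand: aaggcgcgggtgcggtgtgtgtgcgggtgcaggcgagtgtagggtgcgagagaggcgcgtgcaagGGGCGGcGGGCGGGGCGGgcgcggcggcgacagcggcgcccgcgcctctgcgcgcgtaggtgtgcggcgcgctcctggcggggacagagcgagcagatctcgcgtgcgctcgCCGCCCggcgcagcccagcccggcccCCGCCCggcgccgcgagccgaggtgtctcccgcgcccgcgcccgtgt

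The 2 windows differed in these letters. Grin1 held TGACG 2 times and GGGCGG 0 times, with 57.6% G and C. Camk2b held GGGCGG 5 times, of which 2 overlapped each other, and TGACG 0 times, with 80.4% G and C. The Camk2a window (chr18:56648930-56649179, plus strand) held TGACG 2 times and GGGCGG 0 times, with 60.4% G and C. Among all 33469 windows of this length in the table, 18.2% held TGACG and 30.5% held GGGCGG, and the median share of G and C was 51.2%. These are matches of letters in 1 window per gene.

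Grin1, the obligatory NMDA receptor subunit, was among the steadier of the 6 transcripts. Over 81 rats it ranged from 11.53 to 12.32 (2948 to 5128 normalized counts), a span of 1.74-fold. In batch 2 it ranged from 11.83 through a median of 12.06 to 12.32, and in batch 3 from 11.62 through 12.06 to 12.27. It was lower in batch 4, from 11.53 through 11.78 to 12.05, and in batch 6 it ran from 11.62 through 11.89 to 12.10. The rat of batch 5 stood at 11.75. In batch 4, 20 of 27 rats were below every rat of batch 2. For this and later counts of rats beyond another group's range, the share of all genes that separated as far was not worked out. Batch 4 was lower than batch 2 by -0.33 (SE 0.052, adjusted p = 1e-06, limma, Benjamini-Hochberg over the whole table), and batch 6 minus batch 2 was -0.21 (SE 0.058, adjusted p = 0.00162).

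Grin2a, which encodes the GluN2A subunit, varied most between rats. It ranged from 5.29 in male rat 20 of batch 2 to 8.72 in female rat 27 of batch 6, that is from 38 to 422 normalized counts or 10.8-fold. The batches stood in the order 2, 3, 4 and 6 by their medians. Batch 2 ran from 5.29 through 6.74 to 7.81, batch 3 from 5.58 through 7.15 to 8.31, batch 4 from 6.75 through 7.98 to 8.71 and batch 6 from 7.81 through 8.26 to 8.72. The rat of batch 5 stood at 8.49. Batches 2 and 6 nearly separated: 14 of the 15 rats of batch 2 were below every rat of batch 6. Batch 6 minus batch 2 was 1.52 (SE 0.195, adjusted p = 3.7e-09), or 2.86-fold with a 95% confidence interval of 2.19 to 3.75. Batch 4 minus batch 2 was 1.23 (SE 0.177, adjusted p = 9.98e-08). Batch 3 minus batch 2 was 0.46 (95% confidence interval 0.09 to 0.82, adjusted p = 0.105). Batch 6 minus batch 4 was 0.29 (-0.05 to 0.62, adjusted p = 0.283). Neither passed the threshold of 0.05, the first only because of the adjustment over the whole table (limma, unadjusted p = 0.0144).

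Grin2b, which encodes the GluN2B subunit, was spread widely within every batch instead. It ranged from 4.95 in male rat 21 of batch 3 to 7.47 in female rat 20 of batch 4, or from 30 to 176 normalized counts. Batch 2 ran from 5.75 through 6.09 to 7.0, batch 3 from 4.95 through 6.41 to 7.13, batch 4 from 5.58 through 6.52 to 7.47 and batch 6 from 5.04 through 6.4 to 6.75, with the rat of batch 5 at 6.15. The 4 batches overlapped over most of their ranges. Batch 4 minus batch 2 was 0.25 (95% confidence interval -0.07 to 0.57) and batch 6 minus batch 2 was 0.11 (-0.25 to 0.47).

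Gria1, the gene of the AMPA receptor subunit GluA1, had the smallest p-value of the 6 for a batch difference, while the difference of Grin2a was larger in size. It ranged from 10.44 in male rat 20 of batch 2, the rat that was also lowest in Grin2a, to 12.02 in female rat 16 of batch 4. Batch 2 ran from 10.44 through 11.19 to 11.62 and batch 3 from 10.77 through 11.33 to 11.50. Batch 4 ran from 11.21 through 11.72 to 12.02 and batch 6 from 11.56 through 11.76 to 12.01, with the rat of batch 5 at 11.79. All 22 rats of batch 3 were below all 16 rats of batch 6, and 23 of 27 rats of batch 4 were above every rat of batch 3. Between batches 6 and 3, 59.2% of all genes were called by limma, and how many separated as fully was not worked out. Batch 6 minus batch 2 was 0.59 (SE 0.066, adjusted p = 8.09e-11), or 1.5-fold with a 95% confidence interval of 1.37 to 1.65. Batches 2 and 3 differed by 0.10 (adjusted p = 0.316) and batches 4 and 6 by 0.09 (adjusted p = 0.347), neither of which passed the threshold of 0.05.

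Camk2a, the alpha subunit of CaMKII, varied about as widely as Grin2b and without a detectable batch difference. It ranged from 8.24 in male rat 39 of batch 3 to 11.16 in female rat 16 of batch 4, or from 301 to 2280 normalized counts, a 7.55-fold span. Batch 2 ran from 9.0 through 9.32 to 10.90, batch 3 from 8.24 through 9.57 to 10.49, batch 4 from 8.87 through 9.59 to 11.16 and batch 6 from 8.86 through 9.4 to 10.47, with the rat of batch 5 at 9.57. The batch medians lay close together compared with the ranges. Batch 4 minus batch 2 was 0.10 (95% confidence interval -0.22 to 0.42) and batch 6 minus batch 2 was -0.12 (-0.48 to 0.23).

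Camk2b, the beta subunit, was as steady as Grin1 and moved between batches in the same direction. It ranged from 12.37 in male rat 35 of batch 4 to 13.34 in female rat 16 of batch 4, or from 5297 to 10393 normalized counts. Batch 2 ran from 12.68 through 12.82 to 13.14, batch 3 from 12.48 through 12.81 to 13.07, batch 4 from 12.37 through 12.70 to 13.34 and batch 6 from 12.50 through 12.67 to 12.84, with the rat of batch 5 at 12.58. The ranges overlapped, with 8 of 16 rats of batch 6 below every rat of batch 2. Batch 4 minus batch 2 was -0.17 (SE 0.053, adjusted p = 0.00795) and batch 6 minus batch 2 was -0.18 (SE 0.059, adjusted p = 0.0088). Reads that fit both Camk2a and Camk2b, which are paralogs, were divided between them by the quantification program, so the 2 values are not fully separate measurements.

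Female rat 16 of batch 4 was the highest of all 81 rats in Gria1, Camk2a and Camk2b. Male rat 20 of batch 2 was the lowest in Grin2a and Gria1.

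**Figure D1:**
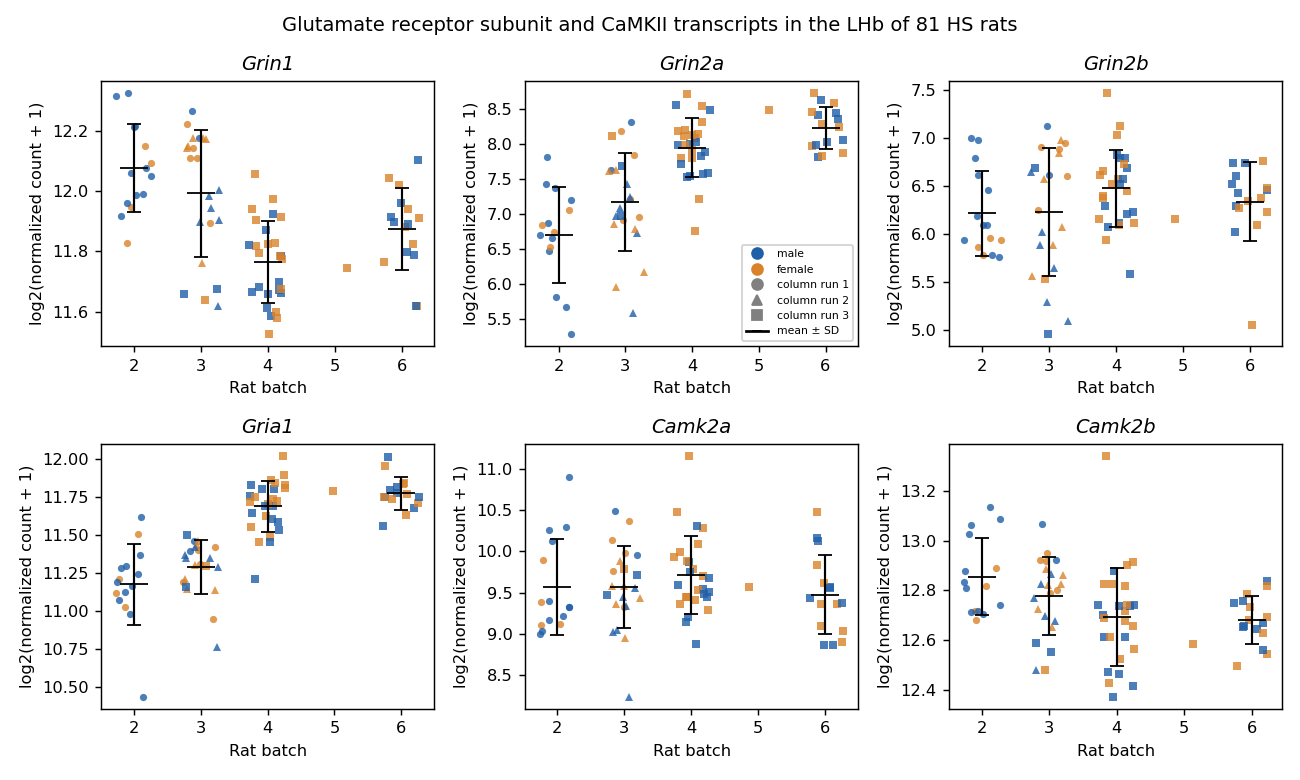
Expression of each gene in the LHb (vertical axis, log2(normalized count + 1), a separate scale per panel) by rat batch (horizontal axis). Each point is 1 rat, with color for sex and shape for the column run, and black bars give the mean ± SD of batches with more than 1 rat. Gria1 and Grin2a stood higher in batches 4 and 6 than in batch 2, Grin1 and Camk2b stood lower, and Grin2b and Camk2a overlapped across batches.

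Over the whole fit, 4 of the 6 genes differed between batches (F-test, adjusted p = 5.22e-15 for Gria1, 3.9e-11 for Grin2a, 1.84e-07 for Grin1 and 0.00904 for Camk2b), where 65.3% of all genes did. Grin2b (adjusted p = 0.322) and Camk2a (adjusted p = 0.546) did not pass. By p-value Gria1 was number 77 and Grin2a number 539 of 17512 genes. Between batches 4 and 2, 4 of 6 genes passed (33.9% of all genes), 2 higher and 2 lower, where 16.1% of all genes were higher and 17.7% lower. Between batches 6 and 2, the count was again 4 of 6 (42.4% of all genes), 2 higher and 2 lower, where 20.6% of all genes were higher and 21.8% were lower. Between batches 4 and 3, 3 of 6 passed (54.9% of all genes), and between batches 6 and 3, 3 of 6 passed (59.2%), with Grin2a and Gria1 higher and Grin1 lower in both. Between batches 3 and 2 (7.44% of all genes) and between batches 6 and 4 (6.04%), 0 of 6 passed, and at an unadjusted p under 0.05 Grin2a differed in the first (p = 0.0144) and Grin1 in the second (p = 0.0277). The median difference of the 6 genes, which went both ways, was 0.18 for batch 4 minus batch 2, beside -0.02 over all genes, and -0.0069 for batch 6 minus batch 2, beside 0.00060 over all genes.

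The batch differences of Gria1 and Grin2a kept their size when column run was added to the fit, whereas those of Grin1 and Camk2b turned round. With run as a covariate, 35.3% of all genes differed between batches, and of the 6 genes Gria1 (adjusted p = 0.00865), Grin2a (adjusted p = 0.00553) and Grin2b (adjusted p = 0.0192) did. Batch 6 minus batch 2 was then 1.49 (SE 0.40) for Grin2a and 0.56 (SE 0.15) for Gria1. For Grin2b it was 1.17 (SE 0.36, adjusted p = 0.00969), against 0.11 without the covariate. Grin1 (0.25, adjusted p = 0.0773) and Camk2b (0.18, adjusted p = 0.24) were then higher in batch 6, and neither passed. Camk2a did not pass in either fit. In the fit with run, run 3 was tied to the other runs only by the 3 rats of batch 3 in run 3. Their libraries and their Grin2b values are described below.

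**Figure D2:**
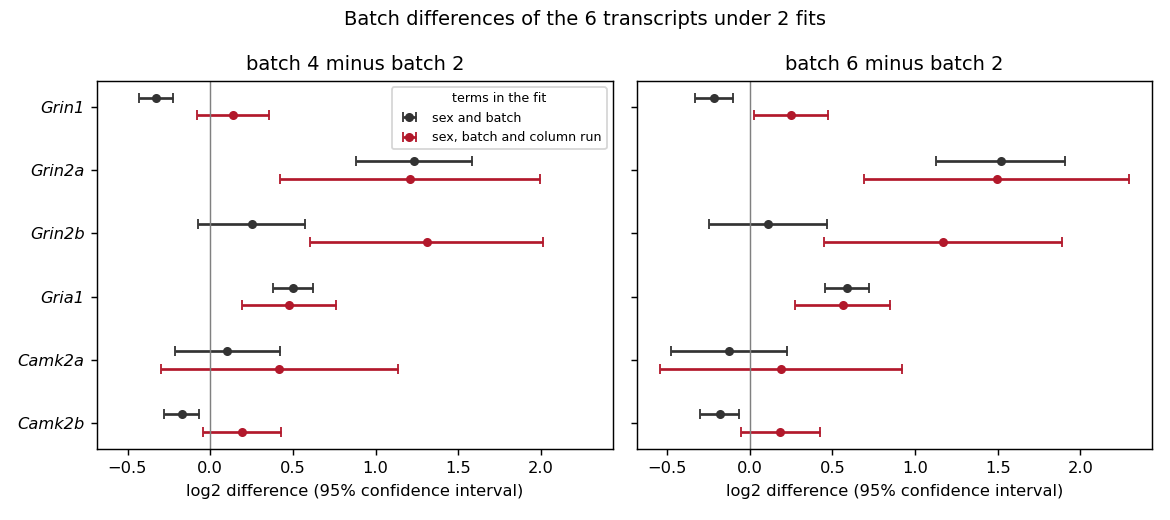
Differences of batches 4 and 6 from batch 2 on the log2 scale (horizontal axis) for each gene, as points with 95% confidence intervals. Black points come from the fit of sex and batch, and red points from the fit that also held column run. Grin2a and Gria1 stayed near 1.5 and 0.6 in batch 6 under both fits, Grin2b moved from 0.11 to 1.17, and Grin1 and Camk2b changed sign.

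Batch 3, the one batch spread over the runs, allowed comparisons within a run. The 3 rats of batch 3 in run 3 had Gria1 at 11.15, 11.30 and 11.50, within the range of the other rats of batch 3 except for the highest of them, and below the median of batch 4, which stood in the same run. Within run 3, Gria1 was higher in batch 4 than in these 3 rats by 0.35 (SE 0.100, adjusted p = 0.0225, where 14.7% of all genes and 1 of the 6 passed). For Grin2a that difference was 0.32 (SE 0.257, adjusted p = 0.388), against 0.77 over all rats of those batches. Within run 3, batch 6 minus batch 3 was 0.46 for Gria1 (SE 0.076, adjusted p = 0.000114), 0.62 for Grin2a (SE 0.206, adjusted p = 0.0214) and 0.22 for Grin1 (SE 0.081, adjusted p = 0.039), so that 3 of 6 passed where 41.1% of all genes did. Grin1 thus stood higher in batch 6 than in batch 3 within run 3, but lower over all rats of those batches (-0.12, SE 0.052, adjusted p = 0.0489).

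For Grin1 the same 3 rats stood at 11.64, 11.66 and 11.68, below all 7 rats of batch 3 in run 1, whose lowest value was 11.89. For Camk2b they stood at 12.48, 12.55 and 12.59, again below all 7 rats of run 1, whose lowest value was 12.79. Within batch 3, run 3 minus run 1 was -0.51 for Grin1 (SE 0.088, adjusted p = 0.0242) and -0.41 for Camk2b (SE 0.080, adjusted p = 0.0289), so that 2 of 6 passed where 4.84% of all genes did. Gria1 differed by -0.04 (SE 0.123) in that comparison. These calls rest on 3 rats. Female rat 6, male rat 21 and male rat 26 had 1404, 1578 and 1550 genes at 0. The 7 rats of run 1 had 376 to 642. Batch 4 had a median of 634 (378 to 1491) and batch 6 of 467.5 (368 to 1110). The comparisons within run 3 thus also set these 3 libraries against libraries with mostly fewer genes at 0. Male rat 26 also had the lowest unscaled total of the 65 rats with an estimate, 5.74 M counts. Grin1 and Camk2b were lower in libraries with more genes at 0, as given later, and the part of this here was not tested. In batch 4 minus batch 3, Gria1 lost its call without female rat 6 (0.31, adjusted p = 0.185) or male rat 26 (0.29, adjusted p = 0.146), with differences of similar size. In run 3 minus run 1, Grin1 (-0.55, adjusted p = 0.142) and Camk2b (-0.43, adjusted p = 0.175) lost theirs without female rat 6, again at similar size. In batch 6 minus batch 3, Grin1 lost its call whichever of the 3 was left out (adjusted p = 0.0669 to 0.149), and Grin2a lost its call without male rat 21 (0.33, adjusted p = 0.219). Gria1 kept an adjusted p of 0.0029 or less there whichever of the 3 was left out. Grin2b stood at 5.52, 4.95 and 6.69 in these 3 rats. By limma it did not pass in batch 4 minus batch 3 (0.73, adjusted p = 0.0678), batch 6 minus batch 3 (0.66, adjusted p = 0.077) or run 3 minus run 1 (-1.12, adjusted p = 0.0845). It passed in each of these without male rat 26. Batch 6 minus batch 3 ran from 0.23 without male rat 21 (adjusted p = 0.553) to 1.10 without male rat 26 (adjusted p = 0.00876).

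Run 2 of batch 3 was lower than run 1 in the 3 most variable transcripts. Run 2 minus run 1 was -0.68 for Camk2a (SE 0.183, adjusted p = 0.0141), -0.78 for Grin2a (SE 0.279, adjusted p = 0.0491) and -0.65 for Grin2b (SE 0.234, adjusted p = 0.0489), 3 of 6 where 23% of all genes passed. Camk2a ran from 9.33 to 10.49 in the 7 rats of run 1 and from 8.24 to 9.89 in the 12 rats of run 2. Run 3 minus run 2 gave 0 of 6 (1.68% of all genes; at an unadjusted p under 0.05, Grin1 and Camk2b). Within run 1, batch 3 minus batch 2 gave 0 of 6 genes, where limma called 0 of all genes (0%) and 1507 had an unadjusted p under 0.05. The largest difference there was 0.92 for Grin2a (SE 0.311, unadjusted p = 0.00694, adjusted p = 0.501), followed by 0.71 for Grin2b (SE 0.185, unadjusted p = 0.00086, adjusted p = 0.468). Camk2a came next at 0.56 (SE 0.242, unadjusted p = 0.0308, adjusted p = 0.557). No other gene of the 6 was under an unadjusted p of 0.05. Within run 3, batch 6 minus batch 4 gave 0 of 6 (10% of all genes), with Grin1 at 0.11 (unadjusted p = 0.0115) and Grin2a at 0.29 (unadjusted p = 0.0193).

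Males and females did not separate in any of the 6 genes. After adjustment for batch, males minus females was -0.06 for Grin1 (95% confidence interval -0.13 to 0.02), -0.07 for Grin2a (-0.31 to 0.18), -0.05 for Grin2b (-0.27 to 0.18), -0.04 for Gria1 (-0.12 to 0.05), -0.14 for Camk2a (-0.36 to 0.09) and -0.04 for Camk2b (-0.11 to 0.03). The count was 0 of 6 by limma (adjusted p = 0.998 for each, 0 of 6 at an unadjusted p under 0.05), where 0.131% of all genes were called. The intervals thus left room for a difference of about 0.1 in Grin1, Gria1 and Camk2b. They reached -0.31 in Grin2a, -0.27 in Grin2b and -0.36 in Camk2a. Camk2a ran from 8.24 through 9.47 to 10.90 in 41 males and from 8.90 through 9.58 to 11.16 in 40 females, ranges that overlapped from 8.90 to 10.90.

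Within batches, 0 of 6 genes differed between the sexes in batch 2 (0.0514% of all genes), batch 3 (0.0514%), batch 4 (0.0799%) or batch 6 (0.0628%). Grin2b pointed in different directions: males minus females was 0.45 in batch 2 (95% confidence interval -0.03 to 0.93), -0.42 in batch 3 (-0.96 to 0.12), -0.16 in batch 4 (-0.47 to 0.16) and 0.28 in batch 6 (-0.12 to 0.68). The interaction of sex with batch had an unadjusted p of 0.038 for Grin2b and an adjusted p of 1. It was called for 0 of 6 genes and for 0 of all genes by limma (0%), with 306 of all genes and 1 of the 6 at an unadjusted p under 0.05.

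Ratios of 2 genes within 1 library do not depend on how that library was scaled. The ratio of Grin2a to Grin2b, the GluN2A to GluN2B transcripts, had a mean log2 value of 0.48 ± 0.55 (SD, n = 15) in batch 2, 0.95 ± 0.75 (n = 22) in batch 3, 1.47 ± 0.49 (n = 27) in batch 4 and 1.89 ± 0.39 (n = 16) in batch 6. It ran from -1.02 in a rat of batch 3 to 2.82 in a rat of batch 6. Its lowest value in batch 6 was 1.34, and the highest in batch 2 was 1.35, so those batches overlapped in a narrow stretch. After sex was removed, batch accounted for 41.9% of its variance (permutation test of batch within sex, adjusted p = 4e-05). That was the smallest adjusted p that 100000 permutations and 8 tests gave. After sex and column run were removed, batch means held 9.19% of the variance then left (permutation within sex and run, adjusted p = 0.0422). Variance that batch and run share was counted as run there. The 2 shares thus have different bases, and the second is not a batch effect at a fixed run. Within batch 3, the mean was 0.82 ± 0.43 (SD, n = 7) in run 1, 0.80 ± 0.76 (n = 12) in run 2 and 1.86 ± 0.81 (n = 3) in run 3. The last stood near the means of batches 4 and 6, which were in the same run.

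The ratio of Gria1 to Grin1, AMPA to NMDA receptor transcripts, had the largest share of its variance between batches before column run was considered. Its mean log2 value was -0.90 ± 0.32 (SD, n = 15) in batch 2 and -0.71 ± 0.26 (n = 22) in batch 3, against -0.08 ± 0.17 (n = 27) in batch 4 and -0.10 ± 0.19 (n = 16) in batch 6. No rat of batch 2 was above -0.37, and no rat of batch 6 was below -0.33. After sex was removed, batch accounted for 69.3% of its variance (permutation test, adjusted p = 4e-05). Of the variance left after sex and column run, batch means held 0.812% (permutation within sex and run, adjusted p = 0.812). Variance shared by batch and run was again counted as run, so the 2 shares have different bases. The 3 rats of batch 3 in run 3 stood between, at a mean of -0.34 ± 0.16 (SD, n = 3).

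The ratio of Camk2a to Camk2b did not differ between batches beyond its spread. Its mean log2 value ran from -3.29 ± 0.45 (SD, n = 15) in batch 2 to -2.98 ± 0.34 (n = 27) in batch 4, and batch accounted for 7.26% of its variance (permutation test, adjusted p = 0.249). The ratio of Camk2a to Grin1 gave 12.8% (permutation test, adjusted p = 0.0385). The call was lost once column run was removed as well (8.88% of the variance then left, adjusted p = 0.0577). It was also lost without batch 4 (0.709%, adjusted p = 0.963). None of the 4 ratios differed between the sexes: the differences ran from -0.09 to 0.02, and the smallest adjusted p of the permutation test was 0.514.

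**Figure D3:**
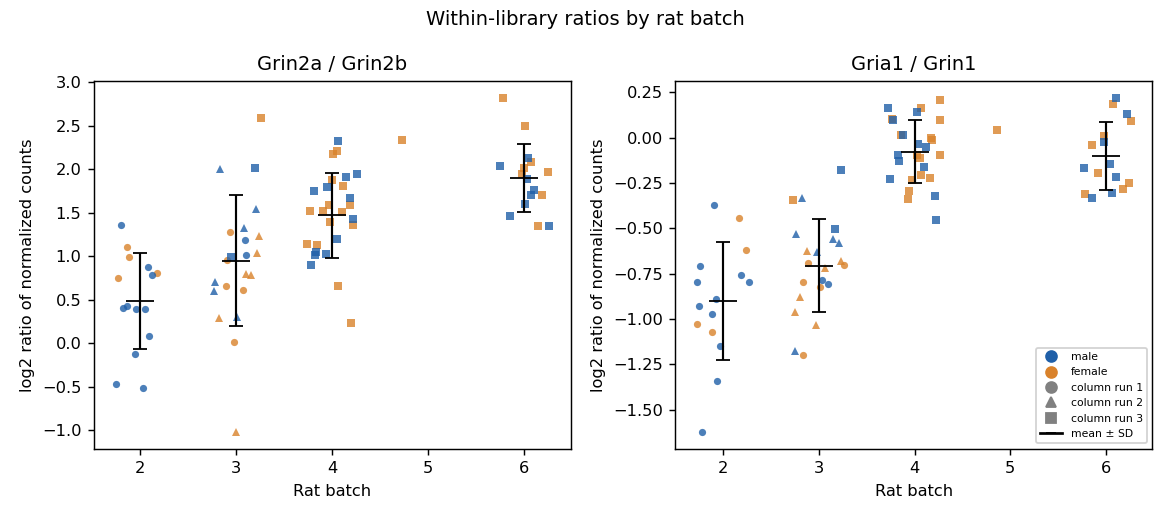
Within-library log2 ratios of normalized counts (vertical axis) of Grin2a to Grin2b and of Gria1 to Grin1, by rat batch (horizontal axis). Each point is 1 rat, with color for sex and shape for column run, and bars give the mean ± SD. Both ratios were higher in batches 4 and 6 than in batch 2, and the 3 rats of batch 3 in run 3 (squares) averaged 1.86 and -0.34, against 0.95 and -0.71 over their batch.

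The 6 genes fell into 3 steady and 3 variable transcripts. After removal of sex and batch, the residual SD between rats was 0.160 for Grin1, 0.163 for Camk2b and 0.185 for Gria1, all below the median of 0.225 over the 13360 genes with a mean of at least 5 (percentiles 22.9, 24.5 and 34.3). It was 0.551 for Grin2a, 0.50 for Camk2a and 0.50 for Grin2b (percentiles 94.9, 92.9 and 92.9). Of the NMDA receptor genes, the obligatory subunit was thus steady and both GluN2 subunits were variable, and of the CaMKII genes beta was steady and alpha variable. The 3 steady genes also had the highest mean values of the 6, uncorrected for transcript length (percentiles 93.9 to 98.3 of all genes). The 3 variable genes had the lowest (32.6 to 72.7). Spread was not ranked among genes of like level. Counting error was smaller than the residual SD in each gene, at 0.156 for Grin2b, 0.091 for Grin2a and 0.0507 for Camk2a. The spread of Grin2a was not the same in every batch, with an SD of 0.69 (n = 15) in batch 2, 0.70 (n = 22) in batch 3, 0.42 (n = 27) in batch 4 and 0.30 (n = 16) in batch 6.

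From rat to rat, most pairs of the genes were positively correlated. Among the 15 pairs, the residuals after sex and batch were correlated in 12 by Pearson's r and in 11 by Spearman's rho (permutation within sex and batch, adjusted p under 0.05 over 15 pairs, n = 80), with r above 0 in each. The count was 8 without batch 4 and 2 with 20 expression components in the fit. The lowest r among the 12 was 0.275, and 12.2% of all pairs among the 17512 genes had an r at least as high. Of all 15 pairs, 11 had r above 0 within each of the 4 batches. These included Grin2a with Camk2b, which was not called. The called pairs of Grin1 with Grin2b and with Camk2a were not among them. Closest were Grin1 and Camk2b, with r = 0.66 and rho = 0.67 (adjusted p = 7.5e-05 for both, the smallest the permutations gave). In batches 2, 3, 4 and 6 their r was 0.69, 0.88, 0.60 and 0.43, and without the 2 rats farthest from the median of Grin1 it was 0.62.

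The 2 CaMKII subunits followed, with r = 0.64 and rho = 0.60 for Camk2a and Camk2b (permutation adjusted p = 7.5e-05 for both). Their r was 0.89, 0.37, 0.74 and 0.62 in batches 2, 3, 4 and 6, and 0.56 without the 2 farthest rats. Grin2b varied with Camk2b (r = 0.52, rho = 0.50, permutation adjusted p = 1e-04 and 3e-04), and their r was between 0.51 and 0.59 in each of the 4 batches. Grin2b also varied with Camk2a (r = 0.46, rho = 0.40, permutation adjusted p = 0.000325 and 0.00172).

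Grin2a was correlated with 3 of the other genes and not with Grin1 or Camk2b. Its residuals were correlated with those of Gria1 (r = 0.50, rho = 0.37, permutation adjusted p = 0.00012 and 0.00222), Camk2a (r = 0.48, rho = 0.41, permutation adjusted p = 0.00012 and 0.00054) and Grin2b (r = 0.41, rho = 0.44, permutation adjusted p = 0.00114 and 0.000337). With Gria1, r was 0.34 without the 2 farthest rats and between 0.33 and 0.73 within batches. With Camk2b it was 0.15 (rho = 0.11, permutation adjusted p = 0.246 and 0.367). Grin1 and Grin2a, whose products join in 1 receptor, were not correlated beyond the threshold (r = -0.12, rho = -0.10, permutation adjusted p = 0.373 and 0.372), and neither were Grin1 and Gria1 (r = 0.07, rho = 0.11, permutation adjusted p = 0.530 and 0.367).

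The remaining pairs were weaker. Gria1 was correlated with Camk2b (r = 0.36), Camk2a (r = 0.34) and Grin2b (r = 0.31), with permutation adjusted p from 0.00197 to 0.00678. Gria1 and Camk2b had r = 0.72 in batch 4 and 0.69 in batch 6, but 0.07 in batch 2 and 0.11 in batch 3. Grin1 was correlated with Grin2b (r = 0.33, permutation adjusted p = 0.0262, rho = 0.29 with adjusted p = 0.0513), a call lost with column run in the fit (r = 0.21, adjusted p = 0.128) or without batch 3 (r = 0.18, adjusted p = 0.295). Grin1 was also correlated with Camk2a (r = 0.28, permutation adjusted p = 0.0311, rho = 0.28 with adjusted p = 0.0327), a call lost without batch 2, 3 or 4 (adjusted p = 0.0862 to 0.189). In batch 6 both pairs had r below 0, at -0.06 and -0.32.

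Without adjustment for sex and batch, 2 pairs were negatively correlated by both r and rho, and Grin2a with Camk2b by rho alone (r = -0.18, permutation adjusted p = 0.121, rho = -0.25, adjusted p = 0.0349). Over all 81 rats, Grin1 was negatively correlated with Grin2a (r = -0.45, rho = -0.44) and with Gria1 (r = -0.40, rho = -0.40), with permutation adjusted p of 0.000429 or less for r. Within batches, r of Grin1 and Gria1 was -0.15, 0.13, 0.32 and -0.12 in batches 2, 3, 4 and 6, so that relation did not hold within batches. For Grin1 and Grin2a it was -0.16, -0.10, -0.04 and -0.34. Grin2a and Gria1 had r = 0.78 (rho = 0.74) over all rats, against 0.50 after adjustment.

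**Figure D4:**
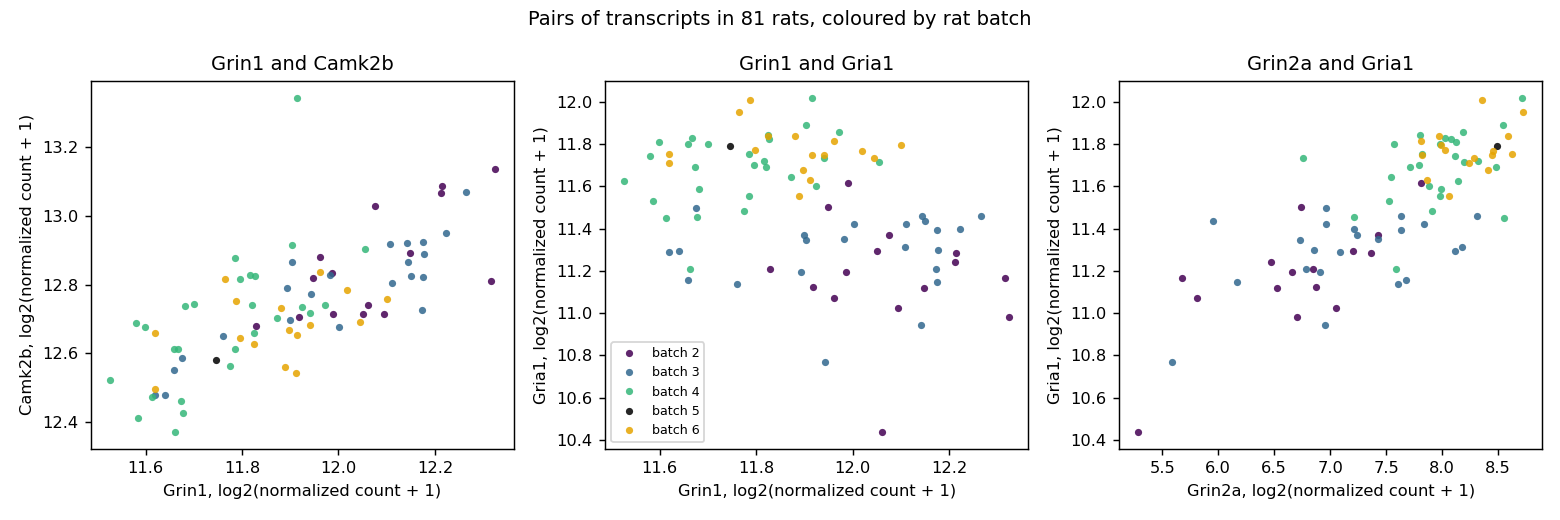
Levels of 3 pairs of genes in 81 rats (both axes log2(normalized count + 1)), with 1 point per rat colored by rat batch. Grin1 and Camk2b varied together within batches 2, 3, 4 and 6, Grin1 and Gria1 fell into batches 2 and 3 at lower Gria1 and batches 4 and 6 at higher Gria1, and Grin2a and Gria1 were both lower in batch 2 than in batch 6.

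**Figure D5:**
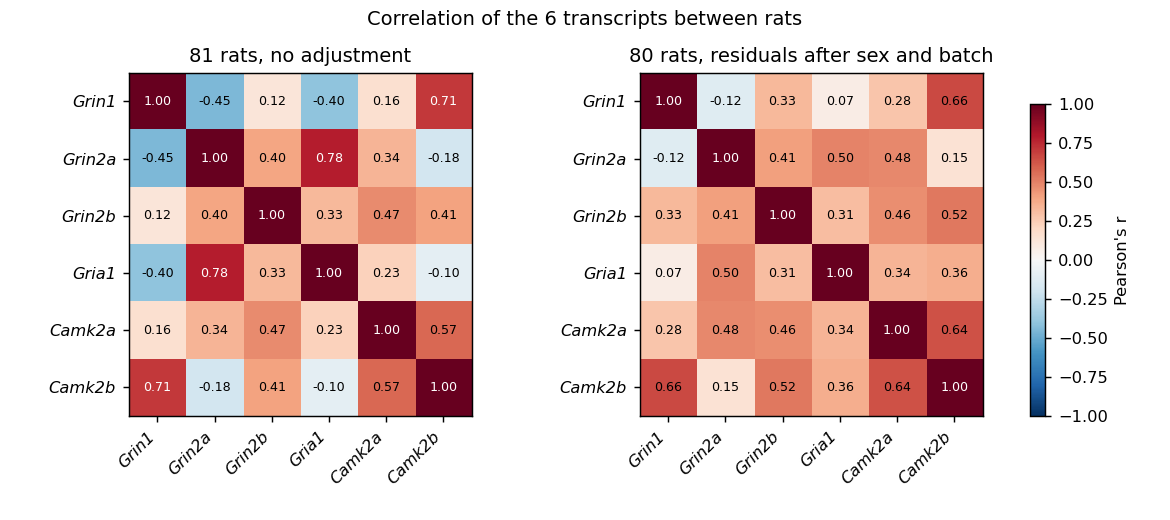
Pearson's r for each pair of genes, over 81 rats without adjustment (left) and over 80 rats for residuals after sex and batch (right), on a color scale from -1 to 1. Negative values of Grin1 with Grin2a (-0.45) and Gria1 (-0.40) on the left stood at -0.12 and 0.07 on the right, while Grin1 with Camk2b was 0.71 and 0.66.

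The number of genes at 0 in a library moved with 2 of the 6 genes. After sex and batch its log2 value was correlated with Grin1 (r = -0.37, rho = -0.31, permutation adjusted p = 0.0151 and 0.0212 over 6 genes) and Camk2b (r = -0.33, rho = -0.31, permutation adjusted p = 0.0159 and 0.0212). Without the 2 farthest libraries r was -0.46 and -0.36, but within batches it ran from -0.56 to 0.00 for Grin1 and from -0.65 to -0.12 for Camk2b, with batch 3 lowest. Its part in the correlation of Grin1 with Camk2b was not tested. The other 4 genes had r from -0.28 to -0.07 and did not pass. By r, Grin2b came closest (permutation p = 0.0285, adjusted p = 0.057). Its r was -0.80 in batch 6, against -0.18, -0.31 and -0.06 in batches 2, 3 and 4.

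Compared with all other genes of the table, the partners of each gene lay mostly outside the 6. The gene most like Grin1 in its residuals had r = 0.88 (rho = 0.86, n = 80, ENSRNOG00000029450), and the one most like Camk2a had r = 0.88 (rho = 0.83, ENSRNOG00000001706). The highest r was 0.85 for Grin2a, 0.82 for Camk2b (ENSRNOG00000016541) and 0.81 for Gria1, but 0.60 for Grin2b. The gene most like Camk2b was also the fifth most like Grin2b (r = 0.56). Camk2b ranked 72 among the 17511 other genes by r with Grin1, 37 with Grin2b and 80 with Camk2a, while Grin1 ranked 24 and Camk2a 43 by r with Camk2b. Of all other genes, 8.71% had r above 0.5 with Gria1 and 8.29% with Grin2a, against 2.60% with Grin1, 1.85% with Camk2a, 1.52% with Camk2b and 0.405% with Grin2b. These likenesses are descriptions over 80 rats whose genes were measured in the same libraries, and they were not tested.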

How the data were processed

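The LHb of HS rats was profiled by RNA-Seq of polyA RNA. Of 87 rats in the labels, 81 have a column: the authors removed 6 for low read number, outlying expression or genotype mismatch. As their methods and the labels state, the authors trimmed reads with cutadapt, quantified genes with RSEM on Rnor_6.0, scaled libraries by upper quartile with DESeq2 and deposited log2(count + 1) values. Undoing the log gave whole numbers within a relative distance of 3.47e-06, so expected counts were rounded by the authors, and raw counts were not used here.

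All 17512 genes were fitted with limma 3.58.1 (R 4.3.3, lmFit and eBayes with trend) on sex and batch for 80 rats, with two-sided tests, p-values adjusted by Benjamini-Hochberg across the whole table and called under 0.05. Tested on simulated tables of 17512 genes, 200 of them shifted by 0.5, the sex test recovered 91% and the batch F-test 90%, with 6.67% and 4.26% false among calls. These are averages over the shifted genes. Recovery was not worked out for genes as variable as Grin2a, Grin2b and Camk2a (residual SD 0.50 to 0.55). Ratios and correlations were tested with 100000 two-sided permutations (scipy 1.17.1), batch within sex, sex within batch, and rats within sex and batch. Sex, batch and replicate numbers came from the labels, and replicate numbers only name rats. The study's methods say that selection tried to avoid related rats, and its results describe several pairs that appeared closely related. Kinship was not modeled here, so p-values treat rats as independent.

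Named genes were the 6 genes and, by identifier, those most like them. The genes, lists and tests were chosen with earlier results of these data known. Lists of related receptor genes and of cell type markers were not applied, because 0 identifiers could be matched to symbols in the reference table. The comparison with the number of genes at 0 and the rats named as highest or lowest were chosen after the values were seen.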

Additional observations from a re-analysis of the deposited data

Results flagged for a closer look

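Among 40 sets of 4 to 10 rats of 1 batch and sex, over the 6 genes and 4 ratios, 2 values stood apart from the rest of their set by Dixon's criterion, where chance gives about 1 in 20, that is 2. Grin2b was 5.04 in female rat 11 of batch 6, and the other 7 females of that batch ran from 6.09 to 6.75. The library of female rat 11 had 1110 genes at 0, the most in batch 6, where the median was 467.5. Gria1 was 10.77 in male rat 39 of batch 3, and the other 9 males of that batch ran from 11.15 to 11.50. Male rat 39 was also the lowest of all rats in Camk2a, at 8.24.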

How the results depend on the processing

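Sex, batch and interaction counts and each gene's batch call were recomputed under inverse normal transformation, a pseudocount of 8, median-of-ratios scaling, genes with a mean of at least 5, genes at 0 as a covariate, column run as a covariate, 20 expression components, each batch left out and each rat left out. The sex count was 0 of 6 under each of them, as was the interaction count under those run for it. The batch count was 4 of 6 when any 1 rat was left out, and 0 of 6 with 20 expression components, under which 20 of all genes were called. Camk2b lost its batch call without batch 2 (adjusted p = 0.174).

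Directions turned as follows, none past the threshold. With column run: Grin1 in batch 4 (0.14) and 6 (0.25) minus 2, Camk2b in the same (0.19 and 0.18), Camk2a in batch 6 minus 2 (0.19) and Grin2b between sexes (0.0077). With 20 components, males minus females was 0.22 for Grin1, 0.25 for Grin2a, 0.40 for Grin2b, 0.15 for Gria1, 0.70 for Camk2a and 0.24 for Camk2b, batch 6 minus 2 was 0.0018 for Grin1, 0.27 for Camk2a and 0.036 for Camk2b, and batch 4 minus 2 was -0.041 for Gria1. Grin2b between sexes was 0.10 without batch 3 and 0.012 without batch 4, and Camk2b was 0.0057 without batch 4. Among ratios, males minus females was 0.082 without batch 2 and 0.056 without batch 6 for Grin2a to Grin2b, -0.044 without batch 3 for Gria1 to Grin1 and 0.0067 without batch 4 for Camk2a to Grin1. With column run removed first, the batch share of the variance then left lost its call for Gria1 to Grin1 (0.812%) and Camk2a to Grin1 (8.88%). Without batch 4, the latter lost its call too (0.709%).

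Of 12 correlated pairs, 8 to 12 passed under the alternatives other than 20 components, the fewest without batch 4, and 2 passed with 20 components, Grin1 with Camk2b and Camk2a with Camk2b. The r values then turned negative for Grin1 with Gria1 (-0.079), Grin2a with Gria1 (-0.12) and Camk2b (-0.13), and Gria1 with Grin2b (-0.041) and Camk2a (-0.092), and without batch 4 for Grin1 with Gria1 (-0.011). Leaving out each of the 3 run-3 rats of batch 3, chosen after seeing the data, gave 0 to 1 genes in batch 4 minus 3, 1 to 3 in batch 6 minus 3 and 0 to 3 in run 3 minus run 1. The cause of these changes was not tested.

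No paired analysis was possible because replicate numbers only name rats. Marker sums, as covariates or correlates, were not run for want of symbols. Batch and column run are separated by 22 rats of batch 3 alone, and counting error limits Grin2b most.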
